A study of Mus musculus with 12 samples.

Results

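The miR-99 and miR-100 family was described in the cerebral cortex of mice. Its members were chosen by name as the precursors mmu-mir-99a, mmu-mir-99b and mmu-mir-100, and 2 of these 3 were analysed here, out of 589 precursors in all. mmu-mir-99b was not analysed here. Both analysed precursors were above 0 in all 12 libraries, as were 190 of the 589 precursors, whereas 265 of the 589 were at 0 in all 12.

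A miRNA precursor is a short hairpin from which a mature miRNA is cut, and the mature miRNA guides the silencing complex to messenger RNAs that pair with its seed, the bases 2 to 8 counted from its 5′ end. miR-99 and miR-100 are best known as regulators of Mtor and Igf1r, which act in growth and insulin-like growth factor signalling. Their genes lie beside genes of the let-7 and miR-125 families, which are known for their part in the timing of development and are abundant in brain.

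The study asked how chronic alcohol alters miRNAs of the cortex and whether this depends on TLR4, a receptor of innate immunity. Female mice of the C57BL/6J background, either wild type (WT) or lacking TLR4 (TLR4-KO), were 7 weeks old at the start and drank water or water with 10% (v/v) ethanol for 5 months. The 4 groups are called WT and TLR4-KO without alcohol and WT + EtOH and TLR4-KO + EtOH with it. Each had 3 small RNA libraries, and every library pooled the cortex of 3 mice, so that the spread between libraries is a spread between pools. The wild type and knockout mice came from different sources, so that the genotype cannot be told apart from other differences between the colonies.

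The deposited value is a score without a unit. It follows the place of a precursor in its library: the highest value was 134.8 in every library, and over the first 100 places the value at the same place differed between libraries by at most 1.86. A difference in this score is therefore a shift in place among the precursors of a library and not a fold change, and it does not show how deeply a library was sequenced. In bulk cortex, fewer cells of a type and less RNA per cell cannot be told apart.

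Replicate 1 lay farthest from the rest of its group in every group but WT, with replicate 3 next. Over the 190 precursors, the median distance of a library from the mean of the other 2 libraries of its group was 5.03 in WT + EtOH replicate 1, 6.44 in TLR4-KO replicate 1 and 4.68 in TLR4-KO + EtOH replicate 1. In the same 3 groups it was 4.35, 4.27 and 3.91 in replicate 3 and between 1.95 and 2.66 in replicate 2, and it was between 1.39 and 1.92 in the WT libraries. The 3 replicate 1 libraries were thus the farthest of all 12, though replicate 3 was not much nearer. The number of precursors above 0 was highest in replicate 1 of every group. It was 270, 260 and 260 in WT, 270, 233 and 229 in WT + EtOH, 262, 229 and 216 in TLR4-KO, and 262, 247 and 236 in TLR4-KO + EtOH. The part of this number in the results below was not tested. Differences of both members are given with and without these 3 libraries, but of the averaged comparisons only the TLR4-KO difference of mir-100 is.

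The labelled tissue was checked against miRNAs known from neurons and from other tissues. All 10 listed neuronal precursors, of mir-9, mir-124, mir-128 and mir-138, were above 0 in all 12 libraries, with mmu-mir-138-1 the highest at 90.7 ± 2.03 (SD, n = 12). Their level was uneven. The means of mir-124-1, mir-124-2, mir-124-3 and mir-128-2 were 34.2, 33.0, 41.8 and 29.7, whereas the others ran from 67.8 to 90.7. The vascular mir-143 and the leukocyte mir-150, at 80.2 and 75.1, stood above the mir-124 precursors. The liver precursor mmu-mir-122 and the 2 of 5 listed muscle precursors that were analysed, mmu-mir-133a-1 and mmu-mir-133a-2, were at 0 in all 12 libraries.

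The sequences show why the family is treated as one. Of 1679 mature mouse miRNAs in the RefSeq table (GRCm38.p6), 3 carry the seed in capitals below, namely those of the 5′ arms of mir-99a, mir-100 and mir-99b.
mmu-miR-99a-5p: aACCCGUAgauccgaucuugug
mmu-miR-100-5p: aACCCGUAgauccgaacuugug
mmu-miR-99b-5p: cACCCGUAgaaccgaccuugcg

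Counted from 1 at the 5′ end, miR-99a-5p and miR-100-5p differ at 1 of 22 bases, U16A, where the first base is that of miR-99a-5p. miR-99a-5p and miR-99b-5p differ at 4 of 22 bases, A1C, U11A, U16C and U21C. None of these lies in the seed. Reads of miR-99a-5p and miR-100-5p are thus told apart by a single base outside the seed, and how reads with a mismatch were divided between the precursors is not known, so that both values are uncertain to that extent.

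The deposited values are per precursor and do not separate the arms. The hairpins are printed with both mature arms in capitals, because any read from either arm belongs to the precursor.
Mir99a: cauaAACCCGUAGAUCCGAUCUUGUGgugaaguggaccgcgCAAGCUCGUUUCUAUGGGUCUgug
Mir100: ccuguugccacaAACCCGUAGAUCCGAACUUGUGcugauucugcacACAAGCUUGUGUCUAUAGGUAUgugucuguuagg

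The 3′ arms do not group in the same way. The seed of the 3′ arm is shared by mir-99a and mir-99b and differs in mir-100.
mmu-miR-99a-3p: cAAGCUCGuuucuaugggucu
mmu-miR-99b-3p: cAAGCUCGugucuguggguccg
mmu-miR-100-3p: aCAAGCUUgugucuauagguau

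The relatives mir-10a and mir-10b, which lie in the Hox clusters and are known from axial patterning, have a different seed, shown in capitals, and were followed as the closest family outside the members.
mmu-miR-10a-5p: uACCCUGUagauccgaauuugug
mmu-miR-10b-5p: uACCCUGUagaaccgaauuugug

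Each member opens a cluster with a let-7 and a miR-125 precursor on the plus strand (positions on GRCm38, genes from GENCODE). mir-99a lies at chr16:77598936-77599000 in an intron of the long non-coding gene Mir99ahg. let-7c-1 follows after 656 bases and mir-125b-2 after another 46522 bases, both in introns of the same gene. mir-99a and let-7c-1 also lie within an intron of the protein-coding gene Gm11146 on the other strand. mir-100 lies at chr9:41531425-41531504 in introns of the non-coding genes 3110039I08Rik and Gm49317, and overlaps an exon of the antisense gene Gm48742. let-7a-2 follows after 5211 bases and mir-125b-1 after another 45114 bases, both in introns of the genes 3110039I08Rik and Gm49317. mir-125b-1 also overlaps an exon of the gene Gm28119 on the same strand. mir-99b lies at chr17:17830188-17830257 in an intron of the protein-coding gene Spaca6, with let-7e 94 bases and mir-125a a further 367 bases downstream.

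**Figure D1:**
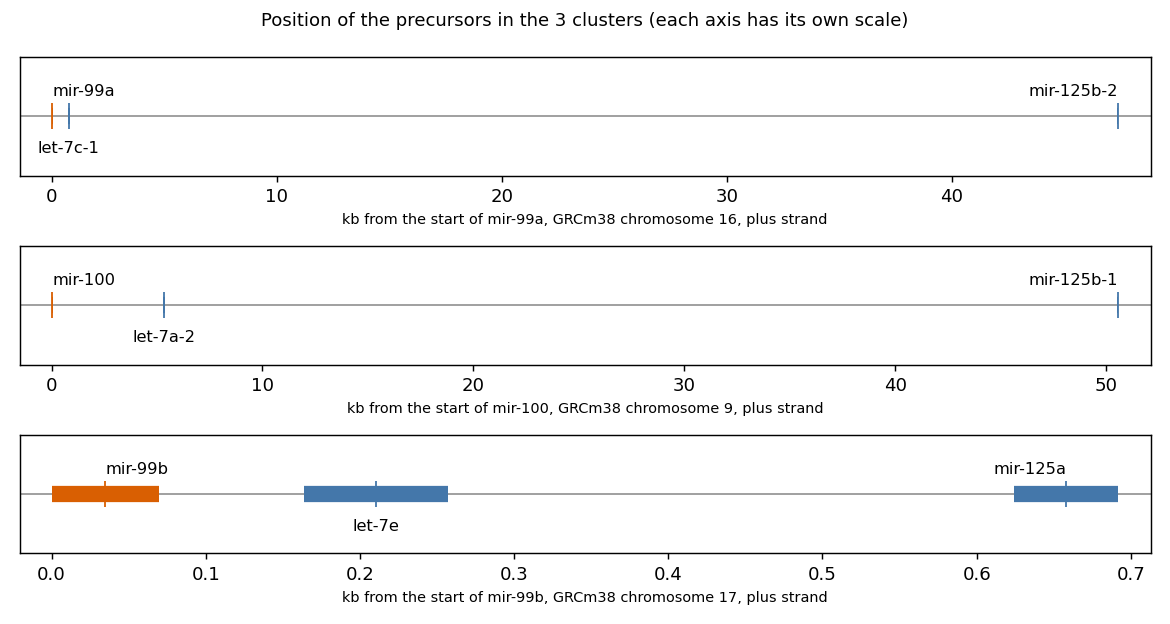
Position of the precursors of the 3 clusters, in kilobases from the start of the first precursor, each axis with its own scale. Orange marks the miR-99 or miR-100 precursor and blue its let-7 and miR-125 partners; the cluster of mir-99b spans 692 bases and those of mir-99a and mir-100 span 47408 and 50578 bases.

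Both members were of middle to high level. mir-100 had a mean of 80.0 ± 5.30 (SD, n = 12 libraries), the 37th highest of the 589 precursors, and mir-99a had a mean of 57.3 ± 2.59 (SD, n = 12), the 69th highest. The mature 5′ miRNAs have the same length of 22 bases, and mir-100 was above mir-99a in 12 of 12 libraries, by 17.8 to 39.9 with a median of 21.3. The widest gap was in WT + EtOH replicate 1.

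The members differed in how much they varied over all 12 libraries. Among the 190 precursors above 0 in all libraries, the SD of mir-99a was the 17th smallest and that of mir-100 the 128th smallest. The median SD was 4.51. mir-100 was at 94.6 in WT + EtOH replicate 1 and between 73.9 and 83.7 in its other libraries. mir-99a lay between 53.9 and 61.0. The contrast thus rests largely on 1 library, and the SD without it was not computed.

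The 4 group means of mir-99a lay between 56.0 and 57.9. Its values were 56.1, 57.6 and 54.3 in WT, and 54.7, 60.2 and 58.8 in WT + EtOH. They were 53.9, 58.8 and 61.0 in TLR4-KO, and 53.9, 59.3 and 59.3 in TLR4-KO + EtOH. All groups overlapped, and replicate 1 was the lowest library in each group but WT, the same 3 libraries that lay farthest from their groups. Replicates 2 and 3 of these 3 groups lay above every WT library, so that the overlap with WT came from replicate 1. This was seen only after the values were known. The group means ran from 56.0 ± 1.64 in WT through 57.5 ± 3.08 in TLR4-KO + EtOH and 57.9 ± 2.86 in WT + EtOH to 57.9 ± 3.62 in TLR4-KO (SD, n = 3 each), and no neighbours in this order differed beyond their spread. In place within the library, mir-99a ranged from 64th to 81st.

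mir-100 was highest in the WT mice given alcohol. Its values were 76.8, 78.0 and 76.8 in WT and 94.6, 83.7 and 80.6 in WT + EtOH, so that every library with alcohol lay above every WT library. They were 73.9, 79.4 and 78.8 in TLR4-KO, and 76.8, 78.8 and 82.4 in TLR4-KO + EtOH, and these groups overlapped with each other and with WT. The group means were 77.2 ± 0.674 in WT, 77.4 ± 3.04 in TLR4-KO, 79.3 ± 2.85 in TLR4-KO + EtOH and 86.3 ± 7.32 in WT + EtOH (SD, n = 3 each). The first 3 of these did not differ beyond their spread, and the SD in WT + EtOH rests on replicate 1. In place within the library, mir-100 was 42nd, 40th and 42nd in WT, and 16th, 31st and 36th in WT + EtOH.

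**Figure D2:**
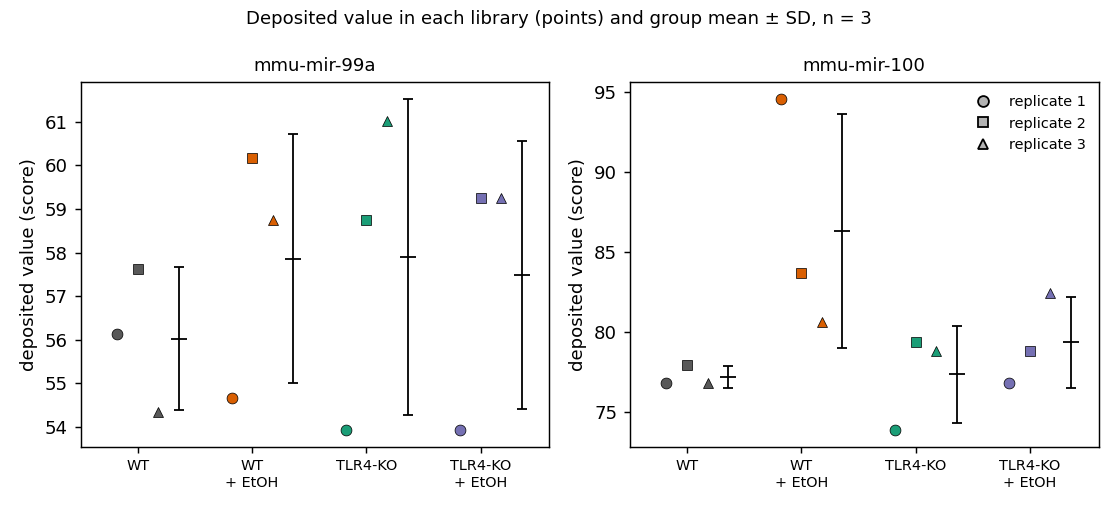
Deposited value (score, vertical axis) of mir-99a and mir-100 in each library of the 4 groups. Points are libraries, with a symbol per replicate number, and bars are the group mean ± SD (n = 3); mir-100 lies between 80.6 and 94.6 in WT + EtOH and between 76.8 and 78.0 in WT.

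Alcohol in WT mice was compared first. The difference of mir-100 was 9.13 (standard error 3.39, 95% confidence interval 1.37 to 16.9), with an unadjusted p of 0.0263 and an adjusted p of 0.267 (limma with Benjamini-Hochberg adjustment over 589 precursors), so that it did not pass the threshold of 0.05. The exact two-sided permutation test gave p = 0.1, which is the smallest that 3 libraries against 3 allow. The difference of mir-99a was 1.83 (95% confidence interval −3.48 to 7.15, adjusted p = 1 from limma with Benjamini-Hochberg adjustment, exact permutation p = 0.4), and from 0.679 to 3.44 with 1 library left out.

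limma with Benjamini-Hochberg adjustment called 0 of the 2 members with alcohol in WT, where 1.70% of the 589 precursors were called, and 1 of the 2 members had an unadjusted p under 0.05, beside 12.6% of all precursors. Since the 265 precursors at 0 in all libraries cannot be called, the shares among the 190 above 0 in all libraries were higher, at 4.21% called and 32.1% with an unadjusted p under 0.05. In the other 6 comparisons, 0 to 6.32% of the 190 were called and 6.32% to 30.5% had an unadjusted p under 0.05. With every alcohol library above every WT library, mir-100 was 1 of 36 such precursors among 190, or 18.9%. Both members had differences above 0, with a median of 5.48, beside a median of 0.306 over the 190 precursors.

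The size of the mir-100 difference depended on 1 library. Without WT + EtOH replicate 1 it was 5.00 (adjusted p = 0.533 from limma with Benjamini-Hochberg adjustment), and it was the same 5.00 without the 3 farthest libraries, an alternative chosen after seeing the data (adjusted p = 0.138 from limma). The call also depended on how limma estimated the spread: with a trend and robust fit, the adjusted p was 0.00430 over all 589 precursors. With the same fit it was 0.0756 over the 324 precursors above 0 in at least 1 library and 0.0435 over the 190 above 0 in all 12, 2 alternatives chosen after seeing the data. Over all 23 alternatives the adjusted p of mir-100 ranged from 0.00430 to 0.570, and the difference was above 0 in each.

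Loss of TLR4 without alcohol was the next comparison. mir-100 differed by 0.173 (standard error 3.39, 95% confidence interval −7.59 to 7.93) and mir-99a by 1.87 (standard error 2.32, 95% confidence interval −3.44 to 7.19), both with an adjusted p of 1 from limma with Benjamini-Hochberg adjustment. The exact two-sided permutation p was 1 for mir-100 and 0.5 for mir-99a, whose difference ran from 0.314 to 3.86 with 1 library left out. limma called 0 of the 2 members, with 0 at an unadjusted p under 0.05, where 2.55% of all precursors were called and 12.2% had an unadjusted p under 0.05. Neither member had all TLR4-KO libraries above all WT libraries, which held for 20.0% of the 190 precursors. WT mice serve in both this comparison and that of alcohol in WT.

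Alcohol in mice without TLR4 was compared in the same way. mir-100 differed by 1.99 (standard error 3.39, 95% confidence interval −5.77 to 9.75, exact permutation p = 0.6), from 0.242 to 3.27 with 1 library left out, and mir-99a by −0.424 (95% confidence interval −5.74 to 4.89, exact permutation p = 1). limma called 0 of the 2 members and 0.340% of all precursors, and 0 members had an unadjusted p under 0.05, beside 6.96% of all precursors.

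Loss of TLR4 was also compared under alcohol, and the groups overlapped in both members. The difference of mir-100 was −6.97 (standard error 3.39, 95% confidence interval −14.7 to 0.791), with an unadjusted p of 0.0723 and an adjusted p of 1 from limma with Benjamini-Hochberg adjustment, and the exact permutation p was 0.2. WT + EtOH replicate 3, at 80.6, lay below TLR4-KO + EtOH replicate 3, at 82.4. Without WT + EtOH replicate 1 the difference was −2.83. mir-99a differed by −0.384 (exact permutation p = 0.7). limma called 0 of the 2 members and 0.509% of all precursors, and 0 members had an unadjusted p under 0.05, beside 4.58% of all precursors.

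Whether the alcohol effect depends on TLR4 was tested by the interaction, the alcohol difference in TLR4-KO less that in WT. It was −7.14 for mir-100 (standard error 4.79, 95% confidence interval −18.1 to 3.83, adjusted p = 0.827 from limma with Benjamini-Hochberg adjustment) and −2.26 for mir-99a (95% confidence interval −9.77 to 5.25, adjusted p = 1 from limma). limma called 0 of the 2 members and 1.19% of all precursors, and 0 members had an unadjusted p under 0.05, beside 12.6% of all precursors. A different alcohol effect in the 2 genotypes was not shown for either. Without WT + EtOH replicate 1, the interaction of mir-100 was −3.01, and with 1 library left out that of mir-99a ran from −4.25 to −0.483.

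Averaged over the genotypes, 6 libraries with alcohol were set against 6 without. mir-100 differed by 5.56 (95% confidence interval 0.0766 to 11.0496, unadjusted p = 0.0475, adjusted p = 0.571 from limma with Benjamini-Hochberg adjustment) and mir-99a by 0.705 (adjusted p = 1 from limma). With 1 library left out, the mir-100 difference ran from 3.50 to 6.98, and over the other alternatives from 3.26 to 5.60. limma called 0 of the 2 members and 0.340% of all precursors, with 1 member at an unadjusted p under 0.05, beside 8.49% of all precursors. With the trend and robust fit over all 589 precursors, mir-100 had an adjusted p of 0.0179 here, in a range of 0.0179 to 0.890 over its alternatives. Averaged over alcohol, the TLR4-KO difference was −3.40 for mir-100 (adjusted p = 0.977 from limma with Benjamini-Hochberg adjustment) and 0.745 for mir-99a (adjusted p = 1 from limma). limma called 0 of the 2 members and 1.36% of all precursors, and the mir-100 difference ran from −4.81 to −1.33 with 1 library left out and was 0.183 without the 3 farthest libraries.

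Both members were also compared without the 3 farthest libraries. With alcohol in WT, mir-99a then differed by 3.44 (unadjusted p = 0.0321, adjusted p = 0.231 from limma with Benjamini-Hochberg adjustment), beside 1.83 with all libraries. In TLR4-KO against WT, mir-99a differed by 3.86 (unadjusted p = 0.0210, adjusted p = 0.198 from limma) and mir-100 by 1.92 (adjusted p = 0.836 from limma). With alcohol in TLR4-KO the differences were −0.637 for mir-99a and 1.52 for mir-100, and in TLR4-KO under alcohol they were −0.210 and −1.56. The interaction was −4.07 for mir-99a (adjusted p = 0.450 from limma) and −3.48 for mir-100 (adjusted p = 0.729 from limma), and limma called neither member in any of the 7 comparisons. These fits leave 2 libraries in each group but WT. They also called more of the 589 precursors, 33 with alcohol in WT (10 with all libraries) and 31 in TLR4-KO against WT (15). The share of all precursors with an unadjusted p under 0.05 was not computed for these fits.

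The cluster partners of mir-99a and mir-100 stood higher than the members. The means over 12 libraries were 102 for let-7c-1 and 114 for mir-125b-2 beside mir-99a, and 99.8 for let-7a-2 and 108 for mir-125b-1 beside mir-100. In the cluster of mir-99b, let-7e had a mean of 75.8 and mir-125a one of 114. The 5′ mature miRNA of mir-125b-1 and mir-125b-2 is identical, as RefSeq lists it, and reads of it cannot be assigned to one of these genes by sequence, so that both values are uncertain. The same holds for the let-7 partners: the hairpins of let-7c-1 and let-7c-2 both contain let-7c-5p, and those of let-7a-2 and let-7a-1 both contain let-7a-5p. let-7c-2, which lies on another chromosome than let-7c-1, stood exactly 1 place above it in each of the 12 libraries. let-7a-1 stood below let-7a-2 in each of the 12 libraries, by a varying number of places (Pearson's r of their values 0.822).

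limma called 2 of the 6 partners higher with alcohol in WT, beside 1.70% of the 589 precursors and 4.21% of the 190. It called 2 of the 6 higher in TLR4-KO than in WT, beside 2.55% and 6.32%. In both cases these were mir-125b-2 and mir-125a. The TLR4-KO calls were lost in some alternatives, with an adjusted p from limma of up to 0.101 for mir-125b-2 and 0.0817 for mir-125a. In the averaged comparisons, 1 of the 6 was called with alcohol (0.340% of all precursors) and 2 of the 6 in TLR4-KO (1.36%). mir-125b-2 was at 111.3, 110.4 and 110.4 in WT and at 115.5 in each WT + EtOH library, a difference of 4.77 (standard error 0.285, adjusted p = 3.22e-05 from limma with Benjamini-Hochberg adjustment). In the same comparison its neighbour mir-99a differed by 1.83 with a standard error of 2.32. In place within the library, mir-125b-2 was 5th, 6th and 6th in WT and 3rd in each WT + EtOH library. In each of the 9 libraries outside WT, mir-125b-2 and mir-125a held places 3 and 4 between them, at 115.5 and 114.9. Their values are therefore not independent, and their small spread outside WT is that between these 2 places. mir-125a differed by 4.22 (standard error 0.497, adjusted p = 0.00437 from limma with Benjamini-Hochberg adjustment), with an adjusted p from 0.000207 to 0.109 over its alternatives, beside 3.69e-05 to 0.0795 for mir-125b-2. let-7c-1, let-7a-2, mir-125b-1 and let-7e were not called in any of the 7 comparisons, with differences from −4.76 to 6.15, except that mir-125b-1 was called in TLR4-KO against WT with the trend and robust fit over 589 precursors (difference 4.67, adjusted p = 0.0165 from limma, in a range of 0.0165 to 0.890).

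**Figure D3:**
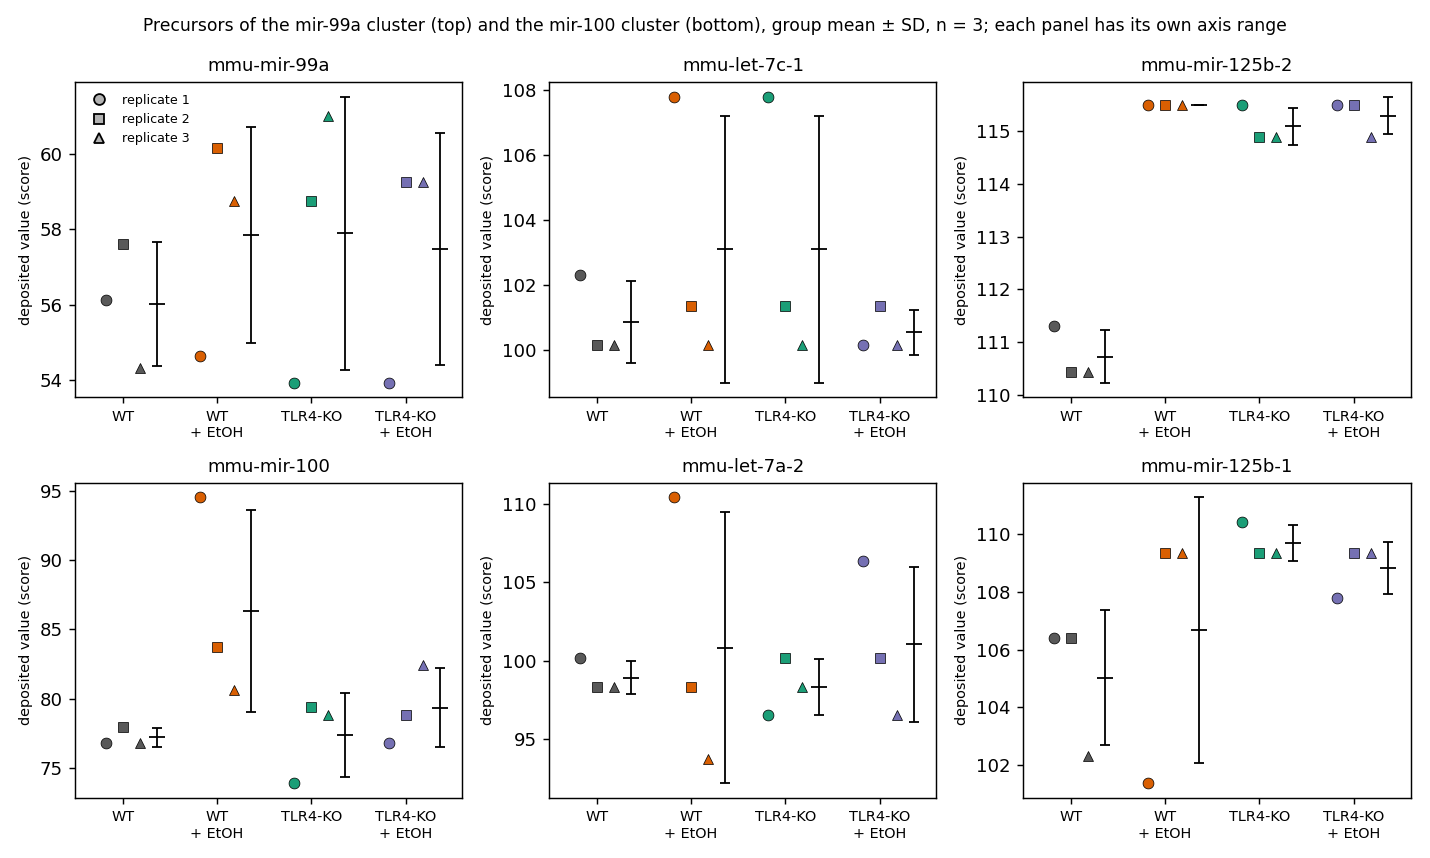
Deposited value (score, vertical axis, each panel with its own range) of the precursors of the mir-99a cluster in the top panels and the mir-100 cluster in the bottom panels, by group. Points are libraries, with a symbol per replicate number, and bars are the group mean ± SD (n = 3); mir-125b-2 lies between 114.9 and 115.5 in all groups but WT, whereas mir-99a overlaps in all 4 groups.

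Each member was then set against its partners in the same library. mir-100 minus let-7a-2 was −21.7 ± 1.52 in WT and −14.5 ± 1.39 in WT + EtOH (SD, n = 3 each), a difference of 7.23 without overlap. The exact permutation p was 0.1, the smallest possible, and 0.8 after Benjamini-Hochberg adjustment over 16 such tests. Such separation was common. Of the 190 single precursors, 18.9% had all WT + EtOH libraries above all WT libraries and 22.1% had them below. The share among gaps of other precursor pairs was not computed. WT + EtOH replicate 1 was high in both precursors, at 94.6 for mir-100 and 110.4 for let-7a-2. mir-100 minus mir-125b-1 was −27.9 ± 2.09 in WT and −20.4 ± 11.9 in WT + EtOH (exact permutation p = 0.5, adjusted p = 0.96), a difference that ran from 0.690 to 11.7 with 1 library left out, and mir-125b-1 was at its lowest, 101.4, in the library in which mir-100 was highest.

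For mir-99a, the gap to mir-125b-2 went from −54.7 ± 1.69 in WT to −57.6 ± 2.86 in WT + EtOH (SD, n = 3 each, exact permutation p = 0.2, adjusted p = 0.8), a difference that ran from −4.09 to −1.33 with 1 library left out. The gap to let-7c-1, only 656 bases away, was −44.9 ± 2.01 in WT and −45.2 ± 6.83 in WT + EtOH (exact permutation p = 1). mir-100 minus mir-125b-1 was lower in TLR4-KO than in WT by a difference of −4.50 without overlap (exact permutation p = 0.1, adjusted p = 0.8), from −5.70 to −2.39 with 1 library left out. This gap followed the partner: mir-125b-1 by itself differed by 4.67 without overlap, and mir-100 by 0.173. Of the 190 single precursors, 20.0% had all TLR4-KO libraries above all WT libraries and 21.1% had them below. As 3 libraries against 3 allow no exact p under 0.1, none of the 16 within-cluster tests could pass 0.05, and the gaps are a description.

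Precursors of the same host gene did not vary together over the 12 libraries in a way that passed the test. Pearson's r was −0.509 between mir-99a and let-7c-1 (permutation p = 0.0991, adjusted p = 0.229) and 0.237 between mir-99a and mir-125b-2 (permutation p = 0.455, adjusted p = 0.568). It was 0.549 between mir-100 and let-7a-2 (permutation p = 0.0901, adjusted p = 0.229) and −0.459 between mir-100 and mir-125b-1 (permutation p = 0.137, adjusted p = 0.229). Spearman's rho of these 4 relations was −0.239 (permutation p = 0.447), −0.00758 (permutation p = 0.985), 0.0308 (permutation p = 0.927) and −0.00377 (permutation p = 0.994), in the same order, each with an adjusted p of 0.994. The adjustment was Benjamini-Hochberg over 5 relations. The values of all 4 partners may hold reads of a copy elsewhere in the genome, so that these relations may not be those of the host genes alone.

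Both relations of mir-100 rest on 2 libraries. Without WT + EtOH replicate 1 and TLR4-KO replicate 1, the libraries farthest from the median of mir-100, r turned to −0.522 with let-7a-2 (permutation p = 0.130) and to 0.632 with mir-125b-1 (permutation p = 0.0489). Those of mir-99a were −0.511 with let-7c-1 (permutation p = 0.129) and 0.558 with mir-125b-2 (permutation p = 0.0934) without its farthest libraries, TLR4-KO replicate 1 and TLR4-KO + EtOH replicate 1. As deviations from the group means, r was −0.703 between mir-99a and let-7c-1 (permutation p = 0.0806), −0.422 between mir-99a and mir-125b-2 (permutation p = 0.259), 0.630 between mir-100 and let-7a-2 (permutation p = 0.297) and −0.719 between mir-100 and mir-125b-1 (permutation p = 0.208).

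The members themselves, which share a seed but lie on different chromosomes, had r = 0.0955 (permutation p = 0.813, adjusted p = 0.813) and rho = 0.598 (permutation p = 0.0431, adjusted p = 0.215). Without the libraries farthest from the median of mir-99a, TLR4-KO replicate 1 and TLR4-KO + EtOH replicate 1, r was −0.223 (permutation p = 0.564). The deviations from the group means gave r = −0.0188 (permutation p = 0.948).

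The miR-10 relatives were lower in level, at 42.5 ± 5.51 for mir-10a and 41.1 ± 4.89 for mir-10b (SD, n = 12). limma called 0 of the 2 in each of the 7 comparisons, and 1 of the 2 had an unadjusted p under 0.05 in TLR4-KO against WT, beside 12.2% of all precursors, and 0 in the other comparisons. This was mir-10b, with a difference of −9.21 (standard error 3.27, adjusted p = 0.243 from limma with Benjamini-Hochberg adjustment) and all TLR4-KO libraries below all WT libraries, which held for 21.1% of the 190 precursors. With alcohol in WT, mir-10b differed by −5.75, again with all alcohol libraries below all WT libraries, as in 22.1% of the 190. mir-10a differed by 3.72 in the same comparison, with 56.7, 44.8 and 36.8 in WT + EtOH, and by −1.60 without WT + EtOH replicate 1.

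The precursors most like each member were taken by Pearson's r. As a description over the 12 libraries and 190 precursors, the 5 highest Pearson correlations with mir-100 were those of mir-10a (0.817), mir-340 (0.807), mir-151 (0.796), mir-204 (0.783) and mir-378c (0.768). As deviations from the group means, r was 0.886, 0.974, 0.658, 0.914 and 0.573 in the same order, so that mir-340 and mir-204 then stood above mir-10a. All 5 had their highest value in the same library as mir-100, WT + EtOH replicate 1, at 56.7, 65.1, 92.4, 93.7 and 63.9. Without that library r was 0.386, 0.333, 0.438, 0.627 and 0.519 over 11 libraries, and the highest placed of them, mir-204, was 11th, so that the order rests on 1 library. The 5 highest with mir-99a were those of mir-1843b (0.812), mir-1224 (0.804), mir-434 (0.803), mir-6240 (0.780) and mir-486a (0.758). All 5 were lowest in replicate 1 in every group but WT, as mir-99a was.

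Since mir-204 marks choroid plexus, the whole list of choroid plexus and ciliated cell precursors was set beside mir-100. Of 5 precursors, 3 were above 0 in all libraries, and mmu-mir-449a was at 0 in all 12. The most abundant was mir-204, with a mean of 85.3 ± 4.30 (SD, n = 12). Its values were 81.1, 84.6 and 81.1 in WT and 93.7, 86.1 and 82.4 in WT + EtOH. The summed value of the list was 145.1, 149.1 and 144.1 in WT and 145.6, 149.9 and 146.4 in WT + EtOH. With alcohol in WT its members did not go one way, with differences of 5.12 for mir-204, −0.768 for mir-34c and −3.12 for mir-211, none of them called. Without WT + EtOH replicate 1 these differences were 1.97 for mir-204, 0.922 for mir-34c and −0.792 for mir-211. The sum was 141.7, 150.0 and 177.0 in TLR4-KO and 155.0, 142.4 and 160.5 in TLR4-KO + EtOH. The part of choroid plexus in the values of mir-100 was not tested.

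The lists of the other cell types were set beside mir-100 in the same groups. The summed value of the 10 neuronal precursors was 646.7, 652.7 and 650.5 in WT and 668.6, 658.4 and 660.2 in WT + EtOH. Every library with alcohol thus lay above every WT library, which held for 18.9% of the 190 single precursors, and replicate 1 was highest. The 10 precursors belong to mir-9, mir-124, mir-128 and mir-138 only and are not 10 separate markers. The sum ran from 611.7 to 667.8 in TLR4-KO and from 632.7 to 656.4 in TLR4-KO + EtOH. With alcohol in WT, 7 of the 10 had a difference above 0 and the 3 mir-9 precursors one below 0, and limma with Benjamini-Hochberg adjustment called 0 of the 10, the largest difference being 9.29 for mir-128-1 (adjusted p = 0.0563 from limma).

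Of the oligodendrocyte precursors, 1 of 3 was above 0 in all libraries, with mir-338 the most abundant at 39.6 ± 5.03 (SD, n = 12). The summed value of that list was 43.5, 42.8 and 45.6 in WT and 67.9, 41.0 and 49.5 in WT + EtOH, so that it was highest in replicate 1, the library in which mir-100 was also highest. With alcohol in WT all 3 members had differences above 0, as mir-100 did, at 1.41 for mir-219a-1, 3.85 for mir-219a-2 and 3.59 for mir-338, and limma called none of them. Without WT + EtOH replicate 1 these differences were 0, 1.12 and 0.192. The sum was between 29.2 and 45.2 in the 6 TLR4-KO libraries with and without alcohol.

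Of the leukocyte precursors, 2 of 3 were above 0 in all libraries and mmu-mir-223 was at 0 in all 12. The most abundant, mir-150, was called higher with alcohol in WT (difference 7.41, adjusted p = 0.0444 from limma with Benjamini-Hochberg adjustment). It was also called higher in TLR4-KO than in WT (difference 9.28, adjusted p = 0.00958 from limma with Benjamini-Hochberg adjustment), where mir-100 differed by 0.173. The other, mir-142a, went the other way in both comparisons without a call. With alcohol in WT it differed by −2.81, and by −9.83 without WT + EtOH replicate 1. It was at 44.2, 45.9 and 42.7 in WT and at 55.5, 28.3 and 40.5 in WT + EtOH. In TLR4-KO against WT it differed by −11.8 (adjusted p = 0.532 from limma with Benjamini-Hochberg adjustment). The summed value was 113.9, 114.5 and 112.3 in WT and 129.6, 105.1 and 119.9 in WT + EtOH, and between 104.8 and 115.3 in the other groups. Of the erythroid precursors, 1 of 2 was above 0 in all libraries. This was mir-451a, which was called lower with alcohol in WT, with a mean of 48.9 ± 2.28 in WT and 34.3 ± 2.33 in WT + EtOH (SD, n = 3 each; adjusted p = 0.0346 from limma with Benjamini-Hochberg adjustment). It was also called lower in TLR4-KO than in WT (difference −17.6, adjusted p = 0.00948 from limma with Benjamini-Hochberg adjustment). The other, mir-144, differed by 1.20 with alcohol in WT without a call, and by −4.13 without WT + EtOH replicate 1. It was above 0 in 3 libraries, at 4.20 and 8.17 in WT replicates 1 and 2 and 15.98 in WT + EtOH replicate 1. The summed value of the erythroid list was 54.4, 58.4 and 46.3 in WT, between 35.3 and 47.6 in WT + EtOH, and between 24.5 and 33.8 in the other groups. All 3 vascular precursors were above 0 in all libraries, with mir-143 the most abundant, and their sum was between 192.3 and 203.8 in the 12 libraries. Within that sum, the differences with alcohol in WT were −6.45 for mir-143 (adjusted p = 0.0649), −6.58 for mir-126a (adjusted p = 0.289) and 8.09 for mir-145a (adjusted p = 0.151), from limma with Benjamini-Hochberg adjustment. The part of any of these cell types in the values of mir-100 was not tested.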

How the data were processed

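Small RNA libraries of mouse cortex were analysed from the table the authors deposited. According to the submitters' processing notes and the study's methods, reads were checked with FastQC 0.11.6, trimmed with cutadapt, aligned with Bowtie2 2.2.5 and TopHat, counted per precursor and normalized, with the build GRCm38. The deposited values are a score without a stated unit. No count test applies to such values, and they carry neither depth nor its precision.

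All 589 precursors and 12 libraries were fitted in R 4.3.3 with limma 3.58.1 (eBayes at its default settings after lmFit and contrasts.fit; 1 mean per group, no covariate), with Benjamini-Hochberg adjustment over 589 precursors and a threshold of 0.05. The 265 precursors at 0 in all libraries entered the fit, whose prior had 0.308 of 8.31 degrees of freedom. The spread of each precursor thus borrowed little from the others. With filters on low values, 21 of 285 and 17 of 190 precursors were called with alcohol in WT, beside 10 of 589. The test was checked on simulated data of the 190 precursors above 0 in all libraries, with a floor on the SD. The check did not cover precursors at 0 or with an SD below that floor. Exact two-sided permutation tests and correlations with 100000 resamples used scipy 1.17.1. Named besides the members were their cluster partners, the miR-10 precursors, marker lists and the 5 precursors most correlated with each member. Members and lists were chosen with earlier results of these data known. Alternatives were quantile normalization, centring on miR-181 or on the library median, filters on low values, other limma settings, a replicate block and libraries left out. No column of the table was left out.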

Additional observations from a re-analysis of the deposited data

Results flagged for a closer look

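In 2 of the 6 cluster partners, limma with Benjamini-Hochberg adjustment called a different alcohol difference in the 2 genotypes. This was called in 1.19% of the 589 precursors and 2.11% of the 190 above 0 in all libraries. The call was lost in 5 of 22 alternatives for mir-125b-2 and in 13 of 22 for mir-125a. For mir-125b-2, the neighbour of mir-99a, the alcohol difference in TLR4-KO less that in WT was −4.56 (standard error 0.403, adjusted p = 0.000730 from limma with Benjamini-Hochberg adjustment). Its alcohol difference was 4.77 in WT and 0.207 in TLR4-KO. For mir-125a, the neighbour of mir-99b, the value was −4.43 (standard error 0.702, adjusted p = 0.0280 from limma with Benjamini-Hochberg adjustment), from 4.22 in WT and −0.207 in TLR4-KO. The 2 calls are not separate: in each of the 9 libraries outside WT the 2 precursors held places 3 and 4 between them. Their spread in these libraries is thus only that between the 2 places. The untreated TLR4-KO libraries of both precursors were already at the level of the alcohol groups, between 114.9 and 115.5. Leaving out 1 library ended the call of mir-125a for 6 of the 12 libraries (WT + EtOH replicates 2 and 3, TLR4-KO replicates 2 and 3, TLR4-KO + EtOH replicates 1 and 2), with values from −4.76 to −3.78 over all 12, and for 0 of the 12 in mir-125b-2. Of the 10 other alternatives, 5 ended the call of mir-125b-2 and 7 that of mir-125a. Filters on low values and each of the 3 trend and robust fits ended both calls, and centring on miR-181 and leaving out the 3 farthest libraries ended that of mir-125a. The SD within a group was between 0 and 0.501 for mir-125b-2 and between 0 and 1.13 for mir-125a. With a trend and robust limma fit over 589 precursors the adjusted p was 0.135 for mir-125b-2, in a range of 0.000301 to 0.251 over its alternatives, and 0.170 for mir-125a, in a range of 0.00110 to 0.264.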

How the results depend on the processing

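The cause of no reversal below was tested. mir-99a was not called under any alternative. With a trend and robust fit over 589 precursors, 1 member (mir-100) was called with alcohol in WT (9.13) and 1 with alcohol averaged over genotype (5.56); over the 190 precursors above 0 in all libraries, 1 was called with alcohol in WT (9.13).

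Leaving out each library in turn gave, for mir-100, TLR4-KO minus WT from −0.839 to 1.92. For mir-99a it gave TLR4-KO + EtOH minus TLR4-KO from −2.41 to 1.35, TLR4-KO + EtOH minus WT + EtOH from −1.99 to 1.39, averaged alcohol from −0.289 to 1.59 and averaged TLR4-KO from −0.0557 to 1.74. With alcohol in WT, let-7c-1 ranged from −0.119 to 3.69 and let-7a-2 from −2.91 to 5.45. In TLR4-KO minus WT, let-7c-1 ranged from −0.119 to 3.69, let-7a-2 from −1.48 to 0.308 and let-7e from −2.34 to 0.992. In TLR4-KO + EtOH minus WT + EtOH, mir-125b-2 ranged from −0.310 to 0, let-7a-2 from −3.33 to 5.03, mir-125b-1 from −0.521 to 3.47 and mir-125a from 0 to 0.310. The interaction of let-7a-2 ranged from −2.76 to 5.60.

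For gaps within a cluster, mir-99a minus let-7c-1 ranged from −2.41 to 3.56 (alcohol in WT), −3.38 to 3.98 (TLR4-KO minus WT), −2.21 to 5.15 (alcohol in TLR4-KO) and −1.78 to 4.18 (TLR4-KO under alcohol). mir-99a minus mir-125b-2 ranged from −2.83 to 1.25 (alcohol in TLR4-KO) and −1.78 to 1.70 (TLR4-KO under alcohol). mir-100 minus let-7a-2 ranged from −0.0611 to 1.62 (TLR4-KO minus WT) and −4.47 to 3.25 (alcohol in TLR4-KO).

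Without the 3 farthest libraries, the averaged TLR4-KO difference of mir-100 was 0.183. In the same fit let-7c-1 was −0.119 with alcohol in WT, −0.119 in TLR4-KO minus WT, 0 in both comparisons of TLR4-KO + EtOH and 0.119 in the interaction. let-7a-2 was −2.91 with alcohol in WT, 0.308 in TLR4-KO minus WT and −0.864 with alcohol in TLR4-KO. let-7e was 0.992 in TLR4-KO minus WT and −0.627 with alcohol in TLR4-KO, and mir-125b-1 was 0 in both comparisons of TLR4-KO + EtOH. Centred on miR-181a and miR-181b, mir-125b-2 was −0.730 with alcohol in TLR4-KO, let-7a-2 −0.969 and mir-125a −0.982 in TLR4-KO under alcohol, and the interaction of let-7a-2 was −0.236. Correlations that changed sign were those of mir-99a with mir-100 (−0.223 without 2 libraries, −0.0188 as deviations), of mir-99a with mir-125b-2 (−0.422 as deviations), and of mir-100 with let-7a-2 (−0.522) and mir-125b-1 (0.632) without 2 libraries.

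The labels do not say that the replicate numbers pair the libraries, and not every same-numbered pair deviated together: 10 of 18 had a correlation of deviations over 0.1, from −0.109 to 0.153. The median was 0.113, beside −0.0376 for other pairs, and the pairs outside WT were at 0.146, 0.152 and 0.133 for replicate 1 and at 0.153, 0.125 and 0.153 for replicate 3, but at −0.0332, 0.0721 and 0.101 for replicate 2. In 23 of 36 combinations of a library and another group the highest correlation was that with its own number, and of 12 libraries 3 correlated best with their own number in all 3 other groups. With a replicate block, the difference of mir-100 with alcohol in WT was 9.13 (adjusted p = 0.413 from limma with Benjamini-Hochberg adjustment), 0 members were called in each comparison, and the calls over all precursors went from 15 to 24 in TLR4-KO minus WT and from 7 to 3 in the interaction. Over all alternatives these calls ranged from 4 to 33 with alcohol in WT (10 as reported), 11 to 34 in TLR4-KO minus WT (15), 0 to 7 with alcohol in TLR4-KO (2), 0 to 3 in TLR4-KO under alcohol (3), 2 to 22 in the interaction (7), 0 to 22 for averaged alcohol (2) and 2 to 16 for averaged TLR4-KO (8). The values carry no depth, and what it limits was not computed.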
